A study of Zea mays with 6 samples.

Results

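The genes described here, 8 of the 39656 in the table, had higher transcript levels in both the center zone (CZ) and the abaxial side (Ab) of leaf primordia than on the adaxial side (Ad). They were chosen by their reads per 1000000 uniquely aligned reads (RPM). The smallest of the 4 CZ and Ab libraries had to reach 5 RPM and at least 2 times the larger Ad library, and the CZ and Ab means had to lie within 3-fold of each other. A further 5 gene IDs were left out by this rule, 3 of which met its limits. All values below that compare CZ, Ab and Ad in the 8 genes are those that chose them, and they describe the pattern without testing it.

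The libraries hold RNA of laser-microdissected cells from shoot apices of 14-d-old wild-type seedlings of the inbred line B73. CZ is the center zone of the shoot apex, and Ab and Ad are the lower and the upper side of leaf primordia 2 and 3. Each group has 2 libraries, each pooled from several apices, so that no value belongs to a single plant. There were no treatments or mutants, and Ad serves here as the side against which CZ and Ab are set.

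The center zone at the tip of the shoot meristem holds stem cells, while primordia on its flank form leaves. A young leaf is soon divided into an adaxial side that faces the meristem and an abaxial side that faces away from it. In Arabidopsis and maize, HD-ZIP III genes act adaxially and KANADI genes abaxially. Trans-acting small RNAs made from TAS3 transcripts restrict certain auxin response factor (ARF) transcripts to the abaxial side. No function is given for any of the 8 genes in the sources used here, so they are described by ID, place and level.

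Count totals ran from 14718269 to 25898155 per library, with both abaxial libraries the smallest. A count of 3 corresponded to at most 0.196 RPM, and this limit, like the intervals below, takes in the error of counting alone, because the RNA was amplified before sequencing. Class I KNOX genes and abph1, which mark the meristem, summed to 1453.0 and 1220.1 RPM in CZ, 17.7 and 10.6 RPM in Ab, and 21.4 and 18.7 RPM in Ad. The KANADI gene mwp1 (milkweed pod1) had 4.4 and 0.5 RPM in CZ, 51.4 and 55.3 RPM in Ab, and 2.2 and 1.5 RPM in Ad. YABBY genes, which mark leaf primordia, summed to 91.3 and 23.5 RPM in CZ, 567.4 and 579.1 RPM in Ab, and 568.6 and 567.7 RPM in Ad, where yabby15 alone had 78.8 and 16.3 RPM in CZ. The part of this difference between the CZ libraries in the levels below was not tested. In bulk samples, a change in the share of cells and a change in RNA per cell cannot be told apart.

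GRMZM2G162702 showed the sharpest drop on the adaxial side (chromosome 6, 134852903 to 134858414, minus strand, B73 RefGen_V3). It had 9.0 and 6.5 RPM in CZ, 9.3 and 7.1 RPM in Ab, and 0.6 and 0.2 RPM in Ad. Its CZ and Ab libraries interleaved, while the adaxial reads were few, with 15 and 6 counts. Exact 95% Poisson intervals ran from 0.342 to 1.01 RPM and from 0.0819 to 0.486 RPM in the Ad libraries, against a lowest bound of 5.50 RPM in any CZ or Ab library. The fitted log2 fold change was 4.06 (SE 0.54) for CZ over Ad and 4.26 (SE 0.54) for Ab over Ad. GRMZM2G050550 came next (chromosome 7, 51469024 to 51471534, plus strand). It had 10.7 and 11.8 RPM in CZ, 8.2 and 7.6 RPM in Ab, and 1.5 and 1.6 RPM in Ad. Here both CZ libraries lay above both Ab libraries, by 1.42 times in the means.

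**Figure D1:**
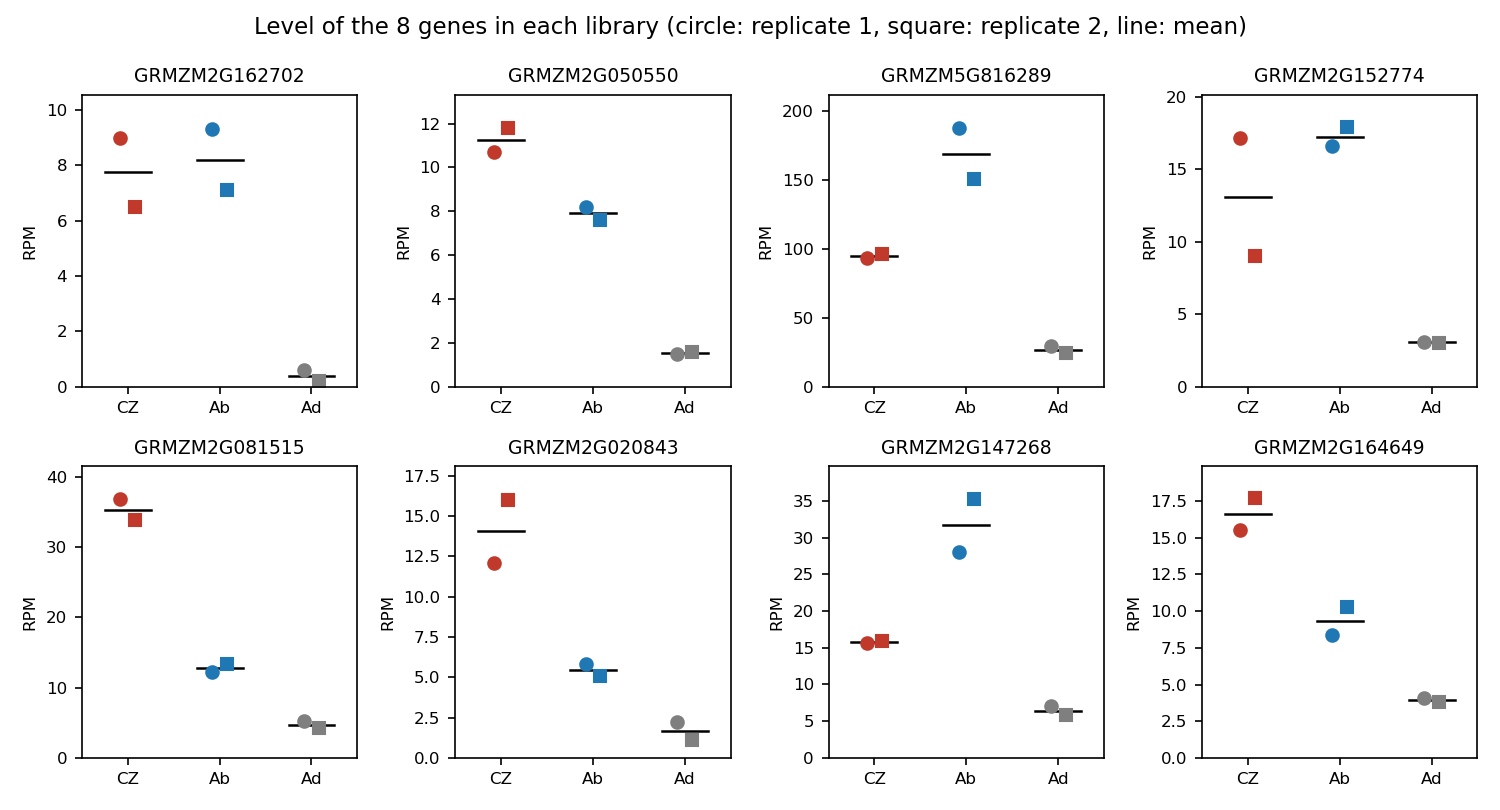
Level in RPM (vertical axes, from 0, one scale per gene) of the 8 genes in each CZ, Ab and Ad library, with circles for replicate 1, squares for replicate 2 and a line at the mean of each pair. In every panel all 4 CZ and Ab points lie above both Ad points, as the rule required, and GRMZM5G816289 is the most abundant with a mean of 169 RPM in Ab.

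In 3 of the remaining genes the abaxial mean was the highest. GRMZM5G816289 was by far the most abundant of the 8 (chromosome 6, 92166518 to 92168596, plus strand). Its level was 93.3 and 96.5 RPM in CZ, 187.9 and 150.4 RPM in Ab, and 29.2 and 24.7 RPM in Ad. The 3 groups did not overlap, and its adaxial level was still above the median of 20.8 RPM of all genes tested. Fitted log2 fold changes were 1.66 (SE 0.19) for CZ over Ad and 2.60 (SE 0.20) for Ab over Ad. GRMZM2G147268 had the same order (chromosome 2, 29265971 to 29269850, minus strand). Its level was 15.6 and 15.9 RPM in CZ, 28.0 and 35.3 RPM in Ab, and 7.1 and 5.8 RPM in Ad. GRMZM2G152774 was less even between replicates (chromosome 3, 211967843 to 211968943, plus strand). It had 17.2 and 9.0 RPM in CZ, 16.6 and 17.9 RPM in Ab, and 3.1 and 3.0 RPM in Ad. The CZ pair, 1.91 times apart, was the widest of all CZ and Ab pairs among the 8 genes, and one CZ value lay inside the Ab pair, so the order of CZ and Ab was not resolved.

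In the other 3 genes the level stepped down through CZ, Ab and Ad, where the step to Ad was set by the rule. The share of all genes with this order was not counted. GRMZM2G081515 had 36.8 and 33.8 RPM in CZ, 12.2 and 13.4 RPM in Ab, and 5.2 and 4.2 RPM in Ad (chromosome 1, 231388505 to 231390103, plus strand). Its CZ mean was 2.76 times its Ab mean, close to the limit of 3-fold. GRMZM2G020843 had 12.1 and 16.0 RPM in CZ, 5.8 and 5.1 RPM in Ab, and 2.2 and 1.1 RPM in Ad (chromosome 2, 2103127 to 2108774, plus strand). Its Ad replicates, 2.00 times apart in RPM, came from 55 and 30 counts. GRMZM2G164649 had 15.5 and 17.7 RPM in CZ, 8.4 and 10.3 RPM in Ab, and 4.1 and 3.8 RPM in Ad (chromosome 10, 131998916 to 132004674, plus strand). GRMZM2G164649 lies closest to the 2-fold limit of the rule. The fitted log2 fold changes for CZ over Ab were 1.35 (SE 0.21) for GRMZM2G081515, 1.26 (SE 0.39) for GRMZM2G020843 and 0.72 (SE 0.27) for GRMZM2G164649.

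**Figure D2:**
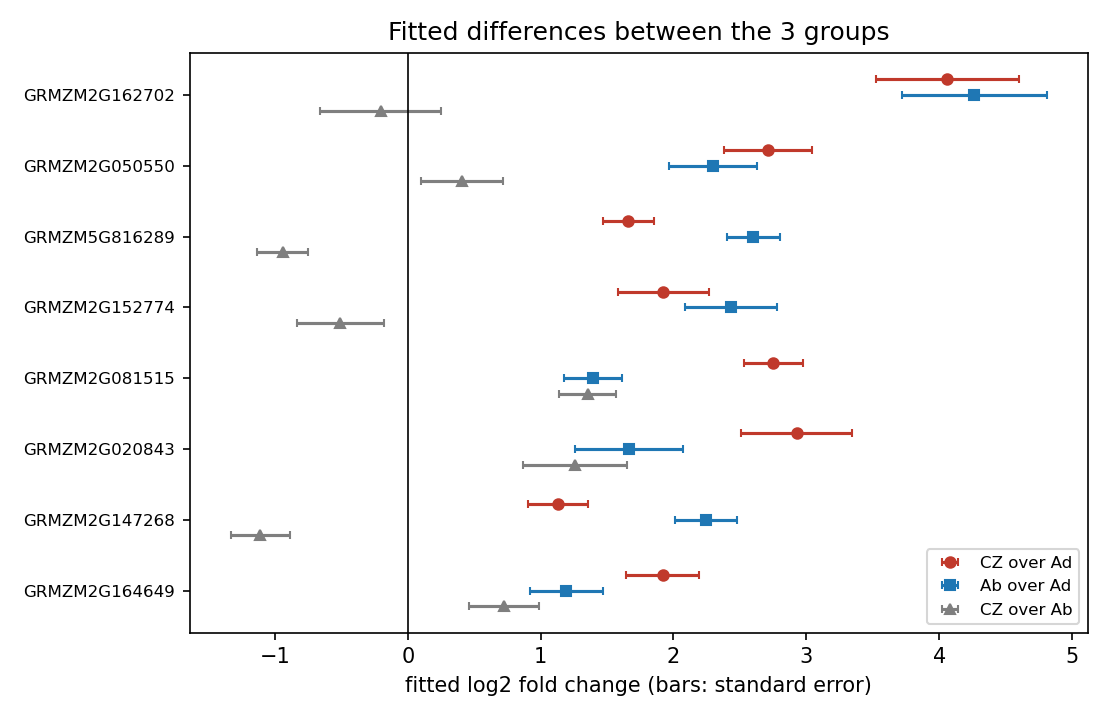
Fitted log2 fold changes (horizontal axis) of the 8 genes with bars of 1 standard error, for CZ over Ad (circles), Ab over Ad (squares) and CZ over Ab (triangles). Both comparisons with Ad lie between 1.13 and 4.26 for every gene, while CZ over Ab runs from -1.11 to 1.35.

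Across the 8 genes the median fitted log2 fold change was 2.32 for CZ over Ad and 2.27 for Ab over Ad, against medians of 0.03 and -0.01 over the 17993 genes tested. All 8 passed the filter of a mean of 2 RPM in at least 1 group. At an adjusted p under 0.01 (edgeR quasi-likelihood test, Benjamini-Hochberg over all 17993 genes), 7 of the 8 were called higher in CZ than in Ad, GRMZM2G147268 being the exception, where 6.38% of all genes were. For Ab over Ad 1 of the 8 was called, GRMZM5G816289, against 0.0222% of all genes, that is 4 genes. It was also the 1 gene of the 8 called in both comparisons, against 0.0111% of all genes. DESeq2 called 6 of the 8 higher in Ab, against 0.367% of all genes. Between CZ and Ab 1 of the 8 was called, GRMZM2G081515, which was higher in CZ, where 10.6% of all genes were called in either direction and 6.22% as higher in CZ. As the rule used these contrasts, nothing is read from the counts. Leaving out Ad replicate 1 left 2 of the 7 calls for CZ over Ad, leaving out Ad replicate 2 left 1, and the single call for Ab over Ad was lost without any 1 of the Ab or Ad libraries. In these fits a group was left with 1 library, which was assumed to vary like the other groups.

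Few genes met the limits. With no gene left out, 11 genes were high in CZ and Ab and low in Ad. The same limits gave 24 genes high in CZ and Ad and low in Ab, and 642 genes high in both leaf sides and low in CZ. Without any fold beyond no overlap, all CZ and Ab libraries lay above both Ad libraries for 1715 of the genes tested, or 9.53%, as for all 8 by the rule. Both CZ libraries lay above both Ad libraries for 41.6%. The 8 genes are 0.0445% of the genes tested. With the limits of 5 RPM and 3-fold kept, the number was 1487 at no fold limit and 32 at 1.5-fold.

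**Figure D3:**
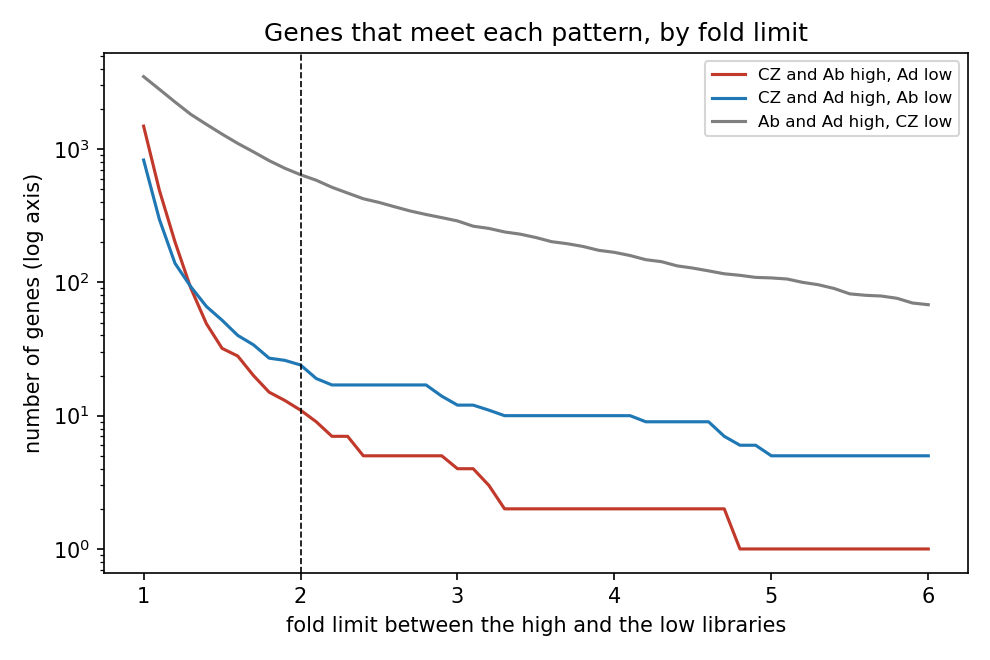
Number of genes (log axis) that met each of the 3 patterns as the fold limit between the high and the low libraries was moved between 1 and 6, with no gene left out and the limits of 5 RPM and 3-fold kept. At the dashed line of 2-fold the curves stand at 11, 24 and 642 genes.

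Just inside the 2-fold limit were GRMZM2G020843, GRMZM2G147268 and GRMZM2G164649, whose smallest CZ or Ab library had 2.32, 2.20 and 2.05 times the larger Ad library. Just outside were GRMZM2G110063, GRMZM5G827174 and GRMZM2G069260, with 1.97, 1.92 and 1.85 times. GRMZM2G110063 had 24.5 and 22.1 RPM in CZ, 31.2 and 25.2 RPM in Ab, and 11.2 and 9.2 RPM in Ad. At a limit of 1.5-fold a further 20 genes entered. One of them, chosen here after its values were seen, is tunicate1 (GRMZM2G370777), a MADS-box gene known for the pod corn mutant. It had 406.5 and 400.7 RPM in CZ, 422.7 and 402.6 RPM in Ab, and 241.6 and 181.2 RPM in Ad.

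A lower floor of 2 RPM added 7 genes. The clearest was GRMZM2G003488, with 3.2 and 3.8 RPM in CZ, 5.0 and 4.2 RPM in Ab, and 0.2 and 0.2 RPM in Ad. Dropping the limit between CZ and Ab added 3 genes, all with the highest level in CZ. Of these, GRMZM2G125976 had 188.4 and 157.6 RPM in CZ, 55.5 and 32.9 RPM in Ab, and 10.9 and 7.6 RPM in Ad.

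**Figure D4:**
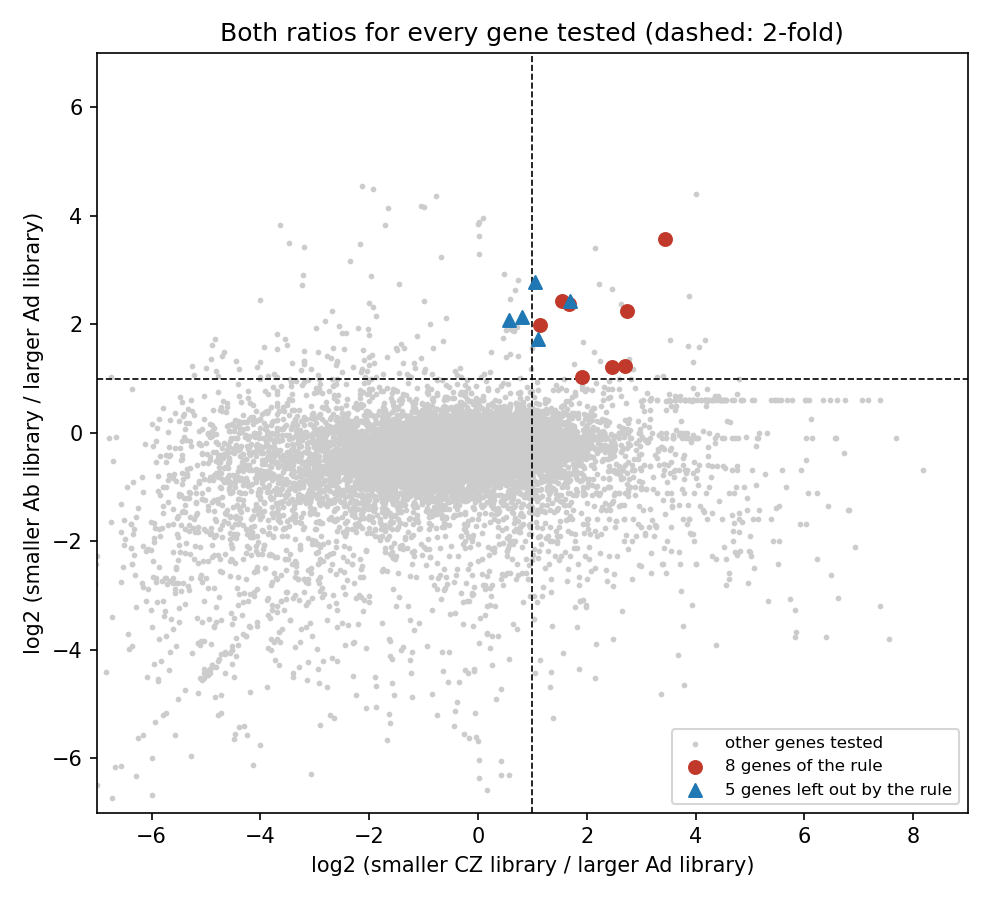
For the genes tested, log2 of the smaller CZ library over the larger Ad library (horizontal axis) against log2 of the smaller Ab library over the larger Ad library (vertical axis), with values under 3 counts set to 3 counts and 26 points outside the axes. The 8 genes (circles) lie past both dashed 2-fold lines, as do 3 of the 5 genes left out by the rule (triangles), while most genes lie near or below 0 on the vertical axis.

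The 5 IDs left out hold 3 genes with an ARF name in the reference table. Of these, ARF11 and ARF23 met the limits of the rule and ARF12 (GRMZM2G437460) did not. ARF12 had 60.4 and 76.7 RPM in CZ, 215.9 and 171.4 RPM in Ab, and 40.4 and 20.5 RPM in Ad. The other ID that met the limits, GRMZM2G030710, has no ARF name there. ARF11 (GRMZM2G056120) had a mean of 49.95 ± 14.2 RPM in CZ (SD, n = 2), 131.5 and 133.4 RPM in Ab, and 19.2 and 18.0 RPM in Ad, and ARF23 (GRMZM2G441325) had 77.3 and 106.7 RPM in CZ, 118.4 and 133.1 RPM in Ab, and 34.4 and 35.8 RPM in Ad. ARF genes are transcription factors of the auxin response. Of 18 tested genes with an ARF name, 9 had all CZ and Ab libraries above both Ad libraries, among them the 3 left out, against 9.53% of all genes tested. The choice of the 3 after their values were known makes this a description.

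None of the 8 genes has a gene symbol beyond a locus name, so lists of known regulators and cell type markers, which were made by symbol, could not hold them. The lists covered class I KNOX genes with abph1, KANADI genes, adaxial HD-ZIP III and LBD genes, YABBY genes, HD-ZIP IV genes of the epidermis, vasculature, photosynthesis, dividing cells, small RNA genes and auxin genes. For CZ over Ad, genes called higher were 6 of 7 in the KNOX and abph1 list, 1 of 2 vascular, 1 of 21 of dividing cells, 1 of 4 small RNA and 6 of 40 auxin genes, where 6.38% of all genes were called higher. Called lower, as were 5.61% of all genes, were 2 of 4 HD-ZIP III and LBD genes, 4 of 8 YABBY, 4 of 4 HD-ZIP IV, 6 of 21 of dividing cells and 2 of 40 auxin genes. The 3 KANADI and 6 photosynthesis genes tested held no call. For Ab over Ad the lists held 1 call higher, ARF11 among the auxin genes, and 2 lower, both among the HD-ZIP III and LBD genes, against 0.0222% of all genes called higher and 0.05% called lower.

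Levels of the markers can be set beside those of the 8 genes. The KNOX transcription factor gene kn1 had 1109.9 and 971.1 RPM in CZ, 2.7 and 1.2 RPM in Ab, and 9.9 and 2.4 RPM in Ad. The abaxial levels of the 8 genes lay between 0.363 and 2.01 times their CZ levels, within the 3-fold that the rule required. All CZ and Ab libraries lay above both Ad libraries for 9.53% of all genes tested and, in the KNOX and abph1 list, for 1 of 7 tested genes. This was lg3, with 86.5 and 66.7 RPM in CZ, 11.2 and 7.6 RPM in Ab, and 2.5 and 4.3 RPM in Ad. The adaxial gene IG1 (indeterminate gametophyte1, an LBD gene) had 7.2 and 3.9 RPM in CZ, 9.7 and 10.9 RPM in Ab, and 201.0 and 181.8 RPM in Ad. Of the HD-ZIP III genes in the same list, rld1 had 349.2 and 444.1 RPM in CZ, 384.0 and 374.9 RPM in Ab, and 475.1 and 470.6 RPM in Ad, and rld2 had 323.7 and 461.5 RPM in CZ, 102.6 and 88.6 RPM in Ab, and 276.5 and 177.4 RPM in Ad. HD-ZIP IV genes summed to 314.4 and 291.8 RPM in CZ, 1634.0 and 1377.2 RPM in Ab, and 1346.6 and 1245.1 RPM in Ad.

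The 8 genes lay on 6 chromosomes. The pair on chromosome 2 was 27.2 Mb apart and the pair on chromosome 6 was 42.7 Mb apart, so that no 2 of them were neighbours. Their gene models spanned 1101 to 5759 bp, and none overlapped the next annotated gene on either side. The reference table held an entry for 6 of them, each under a locus name such as LOC100284969 for GRMZM2G050550. In CZ they ranked from the 24.1 to the 86.3 percentile of the genes tested, in Ab from the 20.6 to the 94.6, and in Ad from the 1.53 to the 57.7.

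The genes beside them were not part of the rule and could be tested. Of the 32 genes within 2 positions, 16 were tested, and none was called in CZ over Ad or Ab over Ad at an adjusted p under 0.01 (edgeR), with 4 and 1 at an unadjusted p under 0.05. Of all genes tested, 44.6% and 5.24% had such an unadjusted p, and edgeR called 6.38% higher and 5.61% lower in CZ over Ad. DESeq2 called 2 of the 16 higher in CZ over Ad, GRMZM2G145583 and GRMZM2G170646, where it called 13.8% of all genes higher, and 0 in Ab over Ad. Their median log2 fold change was -0.02 for CZ over Ad and 0.07 for Ab over Ad, close to that of all genes. Next to GRMZM2G164649, for example, GRMZM2G164714 lay 1899 bp away on the other strand and had 47.8 and 58.7 RPM in CZ, 45.3 and 51.7 RPM in Ab, and 43.5 and 41.8 RPM in Ad. All its CZ and Ab libraries lay above both Ad libraries, as for 9.53% of all genes tested. The fitted log2 fold changes were 0.16 (SE 0.19) for CZ over Ad and 0.13 (SE 0.19) for Ab over Ad.

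Some neighbours, chosen here after their values were seen, had higher Ab than Ad levels. GRMZM2G145583, 178011 bp from GRMZM5G816289, had 2.9 and 3.2 RPM in CZ, 2.1 and 0.9 RPM in Ab, and 0.4 and 0.3 RPM in Ad, from 9 and 8 counts in Ad. The log2 fold change was 3.02 for CZ over Ad (SE 0.71, adjusted p = 0.0186, edgeR) and 2.09 for Ab over Ad (SE 0.71, adjusted p = 0.662, edgeR). GRMZM2G147256, on the same strand as GRMZM2G147268 and 1156 bp away, had 9.2 and 0.8 RPM in CZ, 28.7 and 24.1 RPM in Ab, and 5.9 and 6.3 RPM in Ad. GRMZM2G147241, a gene further, had 114.8 and 1.7 RPM in CZ, 72.9 and 50.8 RPM in Ab, and 24.6 and 15.9 RPM in Ad. In each of these 3 genes both Ab libraries lay above both Ad libraries, which 19.4% of all genes did. The 3 are not a count over the neighbours, and with the genes named next they are all of the 16 tested that had this order. That is a larger share than the 19.4% of all genes, and whether the neighbours differ in this from other genes was not tested. GRMZM2G159498, GRMZM2G152686, GRMZM2G040627 and GRMZM2G164714, also tested, had this order too, with fitted log2 fold changes for Ab over Ad from 0.13 to 0.33. The Ab over Ad difference of GRMZM2G147256 and GRMZM2G147241 did not pass the test (log2 fold change 2.06, SE 1.00, and 1.57, SE 1.75, both with an adjusted p of 1.00 from edgeR), and the CZ replicates differed by over 10-fold in both.

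**Figure D5:**
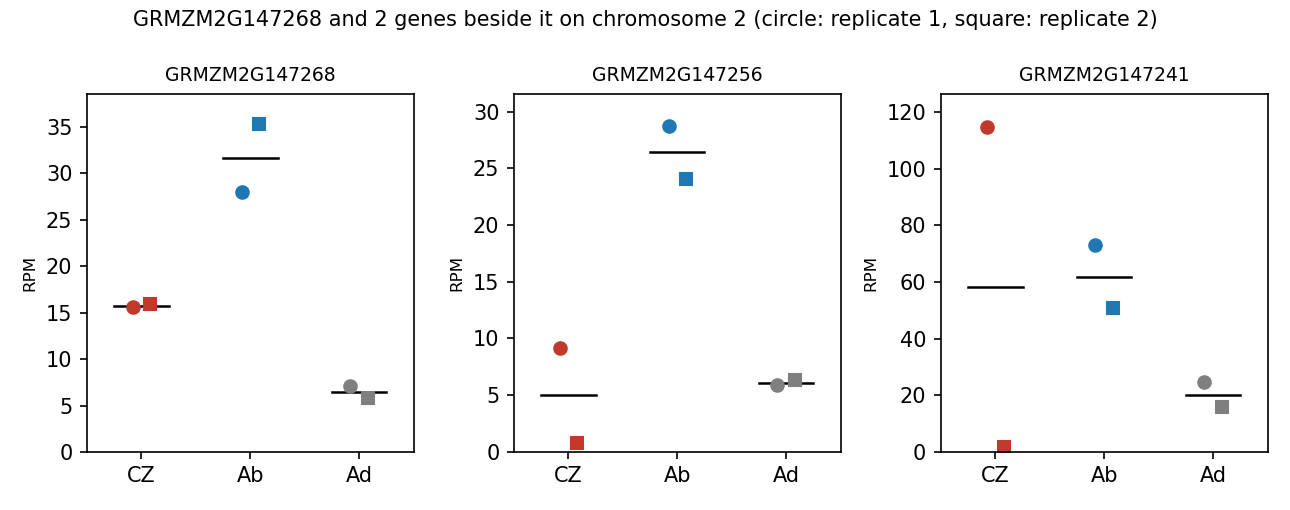
Level in RPM (vertical axes, from 0) of GRMZM2G147268 and of the 2 genes before it on chromosome 2, by group, with circles for replicate 1, squares for replicate 2 and a line at the mean. Ab lies above Ad in all 3 panels, while the CZ replicates lie together only for GRMZM2G147268.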

How the data were processed

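The authors aligned single-end reads of linearly amplified RNA with GSNAP (version not given in the sources used here) to B73 RefGen_V3 and counted uniquely aligned reads per gene. The deposited counts are not normalized. The deposited RPM values are per 1000000 uniquely aligned reads, rounded to 1 decimal and not corrected for length, so levels are compared within a gene. Whether counting used strand is not stated. The study describes the libraries of a group as biological replicates, each from sections of several apices.

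The rule was applied to the RPM. Counts were fitted with edgeR 4.0.16 (quasi-likelihood, TMM scaling, robust) in R 4.3.3, with 1 fit of all 6 libraries and Benjamini-Hochberg adjustment over the 17993 genes that averaged 2 RPM or more in some group. The threshold was 0.01, SE is the log2 fold change over the root of F, and the biological coefficient of variation was 30.5%. DESeq2 1.42.0 was an alternative. The fit was tested on simulated data. Genes named are all 8, those next to the limits, left-out IDs, list genes and neighbours, with others stated as chosen after their values were seen. The genes and lists were chosen with earlier results of these data known. Gene names came from a RefSeq table (Zm-B73-REFERENCE-NAM-5.0), in which 18774 IDs matched. Coordinates are those of the files.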

Additional observations from a re-analysis of the deposited data

How the results depend on the processing

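No fitted fold change of the 8 genes changed direction where it was called. Numbers of genes called below are of those higher than in Ad for CZ over Ad and Ab over Ad. For CZ against Ab they take either direction. Of 333 values under the alternatives, 272 stayed on their side of the threshold, 29 lost a call and 32 gained one. For CZ over Ad, 7 of the 8 were called, and 1 to 7 with 1 library left out. Genes called numbered 2477 with DESeq2, 2911 at an adjusted p under 0.05, 613 with only the groups compared, and 116 to 1661 with 1 library left out. For Ab over Ad, genes called among the 8 numbered 6 with DESeq2, 4 with no filter, 3 at an adjusted p under 0.05, 4 with only the groups compared and 0 to 4 with 1 library left out, and over all genes 66, 19, 18, 30 and 0 to 25. In both comparisons together, genes called among the 8 numbered 6 with DESeq2, 4 with no filter and 3 at 0.05. The number over all genes called in both was not counted for these settings, so nothing is read from them. For CZ against Ab they numbered 3 with DESeq2, with no filter and with a filter of 10 RPM, 4 at 0.05 and 0 to 1 with 1 library left out, and over all genes 4847 with DESeq2, 5321 at 0.05, 1240 with only the groups compared and 217 to 3477 with 1 library left out. Over all genes, those called for CZ against Ab numbered 2728 with no filter and 2028 with a filter of 10 RPM. The median for CZ over Ad was 2.49 with library size alone, 1.92 with a filter of 10 RPM, which drops GRMZM2G162702 and leaves 7 genes, and 2.25 to 2.44 with 1 library left out. That for CZ over Ab was 0.40 over these 7 genes and -0.04 to 0.25 with 1 library left out, and that for Ab over Ad was 2.23 to 2.31. Over the same 7 genes the unchanged fit also gave medians of 1.92 and 0.41, so the loss of 1 gene accounts for both shifts under that filter. The cause of the other shifts was not tested.

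Same-numbered libraries were not shown to pair (correlations of deviations -0.0884 for CZ and Ad, -0.0775 for CZ and Ab, and 0.205 for Ad and Ab). Whether same-numbered Ad and Ab libraries came from the same apices was not tested. With the replicate number as a block, 5 of the 8 were called for CZ over Ad, 0 for Ab over Ad, 0 in both and 0 for CZ against Ab, and over all genes 562, 0 and 953.

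The rule gave 28 genes at 1.5-fold and 3 at 3-fold, 15 at a floor of 2 RPM and 3 at 10 RPM, 55 on group means (chosen after seeing the data), and 9 to 73 with 1 library left out. The 1.5-fold limit gave 32 genes high in CZ and Ab, 52 high in CZ and Ad and 1295 high in Ab and Ad. Comparisons of related proteins and of promoters were planned and not run.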

Other observations

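On group means alone a further 47 genes met the limits, an alternative chosen after seeing the data. These genes failed the limits on single libraries, so the set favours genes whose replicates differ. Some missed only narrowly, such as GRMZM2G110063, at 1.97 times and with replicates at most 1.24 times apart. In 11 of the 47, or 23.4%, the Ad libraries were over 10-fold apart, against 0.895% of all genes tested. In 10, or 21.3%, the CZ libraries were, against 2.38% of all genes tested. For the Ad libraries the lower value was in replicate 1 in 9 and in replicate 2 in 2. GRMZM2G139296, for example, had 192.7 and 234.9 RPM in CZ, 123.8 and 107.0 RPM in Ab, and 0.6 and 114.1 RPM in Ad.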
